A study of Homo sapiens with 12 samples.

Results

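The E2F transcription factors, their DP dimer partners and the retinoblastoma (RB) family of pocket proteins were followed through 10 genes: E2F1, E2F2, E2F3, E2F7, E2F8, TFDP1, TFDP2, RB1, RBL1 and RBL2. Every array probe annotated to 1 of these symbols was taken, which gave 13 probes of 47315 in the table, and 10 of the 20045 genes that the probes name. RBL1, TFDP1 and TFDP2 had 2 probes each. HT144, an established human melanoma line, was transfected by Lipofectamine2000 with #1 siCITED1, #3 siCITED1 (a pair of different siRNAs against CITED1) or siNEG, a control siRNA without a target. CITED1 is a transcriptional co-regulator that recruits CBP and p300. All groups then stayed in normal growth medium, and RNA was taken at 48 h and hybridised to Illumina HT-12 arrays, 4 per group and 12 in all. The wells shared a passage and a plating day, so the tests speak for variation among wells of 1 experiment, which may be technical.

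E2F1, E2F2 and E2F3 are the activating E2Fs: as dimers with DP1 (TFDP1) or DP2 (TFDP2) they switch on the genes of DNA replication as a cell passes from G1 into S phase. E2F7 and E2F8 bind the same DNA sites without a DP partner and repress, and they are themselves induced by E2F. RB (RB1), p107 (RBL1) and p130 (RBL2) bind E2F dimers and hold their target genes silent until cyclin D with CDK4 or CDK6, and then cyclin E with CDK2, phosphorylate them. Much of this control acts on the proteins, which these arrays do not read.

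Values are on a log2 scale, and each probe and each array was centred on 0. A value is therefore the distance of an array from the probe's own mean over the 12 arrays, and levels of different genes cannot be set against each other. Bright and dim probes cannot be told apart either. The array labelled siNEG replicate 1 stood apart from all others on the third principal component (9.43% of the variance, with a score of 21.9 against -9.57 to 5.88 on the other arrays), and results that rest on it are given with and without it. CITED1 itself was 0.64 ± 0.06 log2 below siNEG with #1 and 0.75 ± 0.06 below it with #3 (differences of -0.64 and -0.75, SE, 4 arrays a group, adjusted p = 1.82e-07 and 6.47e-08 by limma). The melanocyte markers, read by 9 probes of 7 genes, averaged 0.186 to 0.274 on the #1 arrays, -0.0836 to 0.0391 on the #3 arrays and -0.276 to -0.183 on the siNEG arrays. With #1, 5 of the 9 probes were called higher, with #3 it was 3, and none was called lower with either. Over all probes 2.79% were called higher with #1 and 1.34% with #3. With each siRNA 2 of the 9 differences were below 0, the lowest at -0.037 with #1 and -0.202 with #3. For fibroblast markers (11 probes of 6 genes) the ranges were 0.014 to 0.0721 with #1, 0.05 to 0.0806 with #3 and -0.114 to -0.0859 in siNEG, with calls at LUM (both siRNAs) and COL1A2 (#3). No keratinocyte probe (6 probes) was called by limma with either siRNA (1 with #1 and 0 with #3 at an unadjusted p under 0.05), and array means lay from -0.0999 to 0.0715 over all groups. The part of these markers in the results below was not tested, and centred values cannot show whether a marker was present or absent.

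The sequences at the start sites of the family are shown because E2F genes are known to be regulated by E2F. The windows of 300 bases (250 before the annotated transcript start and 50 from it) come from RefSeq on GRCh38.p14. Windows were given for 9 of the 10 genes, 13 windows in all, and none for E2F8. In the lines below, capitals mark an E2F site, a CCAAT box or a CHR element, each searched on both strands. The E2F site was searched as the letters TTTGGCG, then as TTTCGCG and finally as TTTCCCG. The box is named for its letters, and the CHR element was searched as TTTGAA. None of the marked matches overlap.
E2F1, chr20:33686336-33686635, minus strand: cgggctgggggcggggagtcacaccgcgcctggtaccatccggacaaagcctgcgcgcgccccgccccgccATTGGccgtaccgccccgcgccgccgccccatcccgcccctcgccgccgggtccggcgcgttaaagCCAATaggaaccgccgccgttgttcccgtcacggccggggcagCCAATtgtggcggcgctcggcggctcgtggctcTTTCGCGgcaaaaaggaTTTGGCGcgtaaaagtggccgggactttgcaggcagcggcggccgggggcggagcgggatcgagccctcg
E2F2, chr1:23531184-23531483, minus strand: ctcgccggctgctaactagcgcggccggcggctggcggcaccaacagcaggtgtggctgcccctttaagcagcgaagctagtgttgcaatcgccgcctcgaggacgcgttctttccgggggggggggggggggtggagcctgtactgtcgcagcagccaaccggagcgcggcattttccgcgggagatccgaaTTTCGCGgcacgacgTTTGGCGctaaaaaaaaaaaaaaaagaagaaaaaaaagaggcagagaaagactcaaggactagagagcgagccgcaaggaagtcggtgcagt
E2F3, chr6:20401629-20401928, plus strand: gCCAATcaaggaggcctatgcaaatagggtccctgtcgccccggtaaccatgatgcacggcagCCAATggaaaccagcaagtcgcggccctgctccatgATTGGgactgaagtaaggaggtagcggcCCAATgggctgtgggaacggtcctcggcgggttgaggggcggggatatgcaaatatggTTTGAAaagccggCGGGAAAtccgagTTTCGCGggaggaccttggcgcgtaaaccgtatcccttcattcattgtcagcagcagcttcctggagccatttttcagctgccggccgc
RBL1, chr20:37095948-37096247, minus strand: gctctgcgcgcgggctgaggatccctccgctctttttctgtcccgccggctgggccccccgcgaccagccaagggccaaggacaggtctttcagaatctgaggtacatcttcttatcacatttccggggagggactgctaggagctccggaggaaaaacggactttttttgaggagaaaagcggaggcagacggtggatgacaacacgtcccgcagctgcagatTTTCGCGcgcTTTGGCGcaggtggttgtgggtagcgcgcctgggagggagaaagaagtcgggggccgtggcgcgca
E2F7, chr12:77065520-77065819, minus strand: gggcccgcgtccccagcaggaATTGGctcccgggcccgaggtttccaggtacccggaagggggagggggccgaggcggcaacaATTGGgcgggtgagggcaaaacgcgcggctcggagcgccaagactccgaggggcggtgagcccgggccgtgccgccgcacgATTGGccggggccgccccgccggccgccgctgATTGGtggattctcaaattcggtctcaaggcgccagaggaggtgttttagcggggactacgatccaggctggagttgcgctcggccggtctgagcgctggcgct

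E2F1, E2F2, E2F3 and RBL1 each had a pair of E2F sites shortly upstream of the start, all between -57 and -10. In E2F1 they lay at -37 to -31 and -20 to -14, where -1 is the last base before the start. In RBL1 they lay at -26 to -20 and -16 to -10, and in E2F2 at -57 to -51 and -42 to -36. In E2F3 the pair at -52 to -46 and -39 to -33 stood beside a CHR element at -65 to -60 and 4 CCAAT boxes. E2F7 had 4 CCAAT boxes and no match to the E2F letters. Over the family, 6 of 13 windows held an E2F site (E2F1, E2F2, E2F3, RBL1, TFDP1 and TFDP2, each in 1 window), against 7.21% of all 35116 windows. A CCAAT box was found in 5 of 13 windows, of 5 of the 9 genes, against 34.6% of all windows. A CHR element was found in 4 of 13, of 3 genes, against 15.2% of all windows. In TFDP2 it lay in windows 2 and 3, which start 120.4 and 120.9 kb downstream of the annotated gene start. The single window for RB1 lay 172.7 kb downstream of the annotated gene start and held no match, so the region at the first exon of RB1 was not examined. A match is a description of letters and not evidence of binding.

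**Figure D1:**
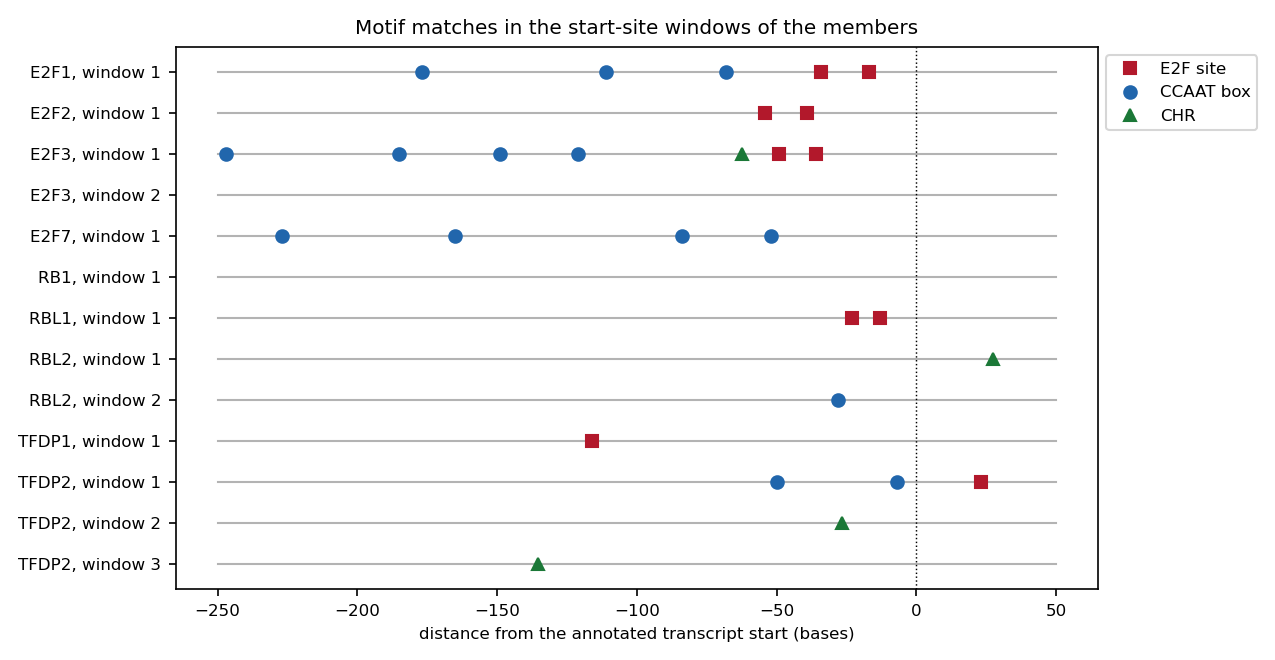
Positions of motif matches (horizontal axis, bases from the annotated transcript start at 0) in each start-site window (rows, named by gene and window number). Squares are E2F sites, circles CCAAT boxes and triangles CHR elements, and E2F1, E2F2, E2F3 and RBL1 each show a pair of squares between -57 and -10.

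Those of the family's probes that were called against siNEG were all called with #1. With #1, 1 of 13 probes was called higher than siNEG (RBL2) and 3 lower (E2F3, E2F7 and 1 probe of RBL1), where 2.79% of all probes were called higher and 3.25% lower. With #3, 0 of 13 were called in limma, where 1.34% of all probes were called higher and 1.2% lower. At an unadjusted p under 0.05, #3 gave 1 member probe, and #1 gave 6. Between the siRNAs, #1 minus #3, 1 probe was higher (RB1) and 3 lower (E2F3, E2F7 and 1 probe of TFDP1), against 3.64% and 3.82% of all probes. With the 8 siCITED1 arrays pooled against siNEG, 0 of 13 were called (2 at an unadjusted p under 0.05), and 0.583% of all probes were called higher and 0.526% lower. The comparisons share arrays, so these counts are not independent of each other. The median difference over the 13 probes was -0.079 with #1 and -0.027 with #3, with the median of all probes at 0.0013 and 0.00092. The count of 4 with #1 was 3 without siNEG replicate 1 and fell to 1 or 2 without siNEG replicate 2, 3 or 4 or any 1 of the #1 arrays. The count of 4 between the siRNAs fell to 2 without #1 replicate 3 or #3 replicate 3.

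Among the activators, E2F3 gave the clearest difference. Its probe, ILMN_1669502, read -0.26, -0.14, -0.08 and -0.37 on the #1 arrays, 0.11, 0.27, 0.10 and 0.18 on the #3 arrays, and 0.06, 0.10, -0.01 and 0.04 on the siNEG arrays. All #1 arrays lay below all arrays of both other groups, while #3 and siNEG overlapped. E2F3 was 1.2-fold lower with #1 than in siNEG (-0.26 ± 0.07 log2 by limma, SE, 4 arrays a group, adjusted p = 0.0188) and 1.3-fold lower with #1 than with #3 (-0.38 ± 0.07, adjusted p = 0.000484). With #3, E2F3 gave 0.12 ± 0.07 against siNEG, which did not pass (adjusted p = 0.598, 95% interval from -0.024 to 0.258). The difference between the siRNAs passed in all 20 alternatives, from -0.42 to -0.32. The fall against siNEG passed in 17 of 20, at -0.26 without siNEG replicate 1 (adjusted p = 0.041), and was lost without siNEG replicate 2 (-0.24, adjusted p = 0.057), #1 replicate 1 (-0.25, 0.059) or #1 replicate 4 (-0.21, 0.101).

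E2F1, the activator most studied in cell cycle entry, did not pass in any comparison. Its probe, ILMN_2051469, read -0.07, -0.15, 0.02 and -0.01 with #1, -0.16, -0.06, -0.23 and 0.25 with #3, and 0.46, -0.01, 0.04 and -0.08 in siNEG. The groups overlapped, and the value of 0.46 on siNEG replicate 1 was the highest of all 12. E2F1 gave -0.16 ± 0.10 with #1 (limma adjusted p = 0.537, 95% interval from -0.361 to 0.049) and -0.15 ± 0.10 with #3 (adjusted p = 0.663, from -0.358 to 0.052). Without siNEG replicate 1, #1 minus siNEG was -0.039 (adjusted p = 0.928). E2F2 (ILMN_1777233) ranged from -0.17 to 0.11 with #1, from -0.18 to 0.17 with #3 and from -0.03 to 0.14 in siNEG. It gave -0.12 ± 0.08 with #1 (adjusted p = 0.573) and -0.02 ± 0.08 with #3 (adjusted p = 0.966). E2F1 and E2F2 thus carry paired E2F letters like E2F3 but gave no call here.

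**Figure D2:**
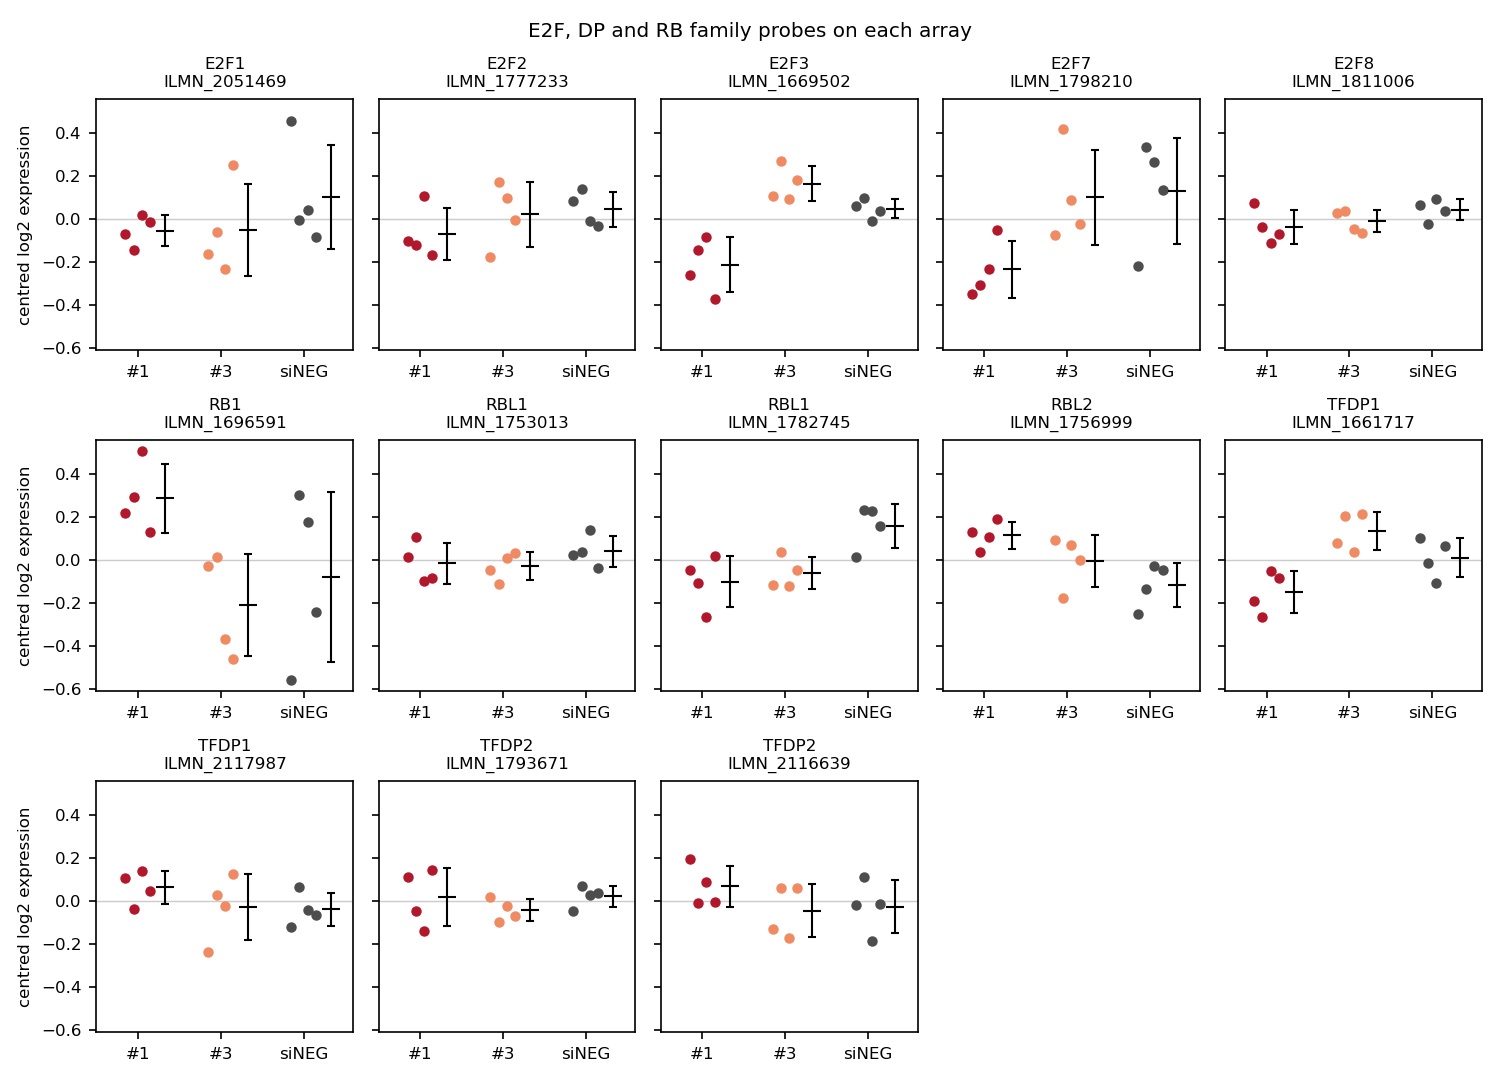
Centred log2 expression (vertical axis) of each E2F, DP and RB family probe on every array of #1 siCITED1, #3 siCITED1 and siNEG, with dots for arrays in replicate order and a black bar with whiskers for the group mean ± SD (n = 4). E2F3 lies lowest on all #1 arrays, and E2F1, E2F7 and RB1 scatter widely inside groups.

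The dimer partner TFDP1 was read by 2 probes that did not move together. Probe ILMN_1661717 read -0.19, -0.26, -0.05 and -0.08 with #1, 0.08, 0.21, 0.04 and 0.21 with #3, and 0.10, -0.01, -0.11 and 0.06 in siNEG. As for E2F3, all #1 arrays lay below all #3 arrays, but here both groups overlapped siNEG. TFDP1 at this probe was 1.22-fold lower with #1 than with #3 (-0.28 ± 0.07 log2 by limma, SE, 4 arrays a group, adjusted p = 0.0088), while #1 gave -0.16 (adjusted p = 0.247) against siNEG, and #3 gave 0.12 (adjusted p = 0.563). Probe ILMN_2117987 gave 0.09 ± 0.07 between the siRNAs (adjusted p = 0.651), and with the mean of both probes the difference was -0.095 (adjusted p = 0.397). The call therefore belongs to 1 probe of TFDP1. It passed in the other 19 of 20 alternatives, every one that left out an array included.

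TFDP2, the other DP partner, gave no call at either probe. ILMN_1793671 gave -0.0041 ± 0.07 with #1 and -0.07 ± 0.07 with #3, and ILMN_2116639 gave 0.09 ± 0.07 and -0.02 ± 0.07 (limma adjusted p from 0.671 to 0.992 over the 4 values). Their 95% intervals lay between -0.205 and 0.249. The arrays of all groups overlapped.

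Of the repressor E2Fs, E2F7 fell with #1 and E2F8 gave no call. E2F7 (ILMN_1798210) read -0.35, -0.31, -0.23 and -0.05 with #1, -0.07, 0.42, 0.09 and -0.02 with #3, and -0.22, 0.34, 0.27 and 0.14 in siNEG. The groups overlapped through siNEG replicate 1 and 1 low #3 array. E2F7 was 1.29-fold lower with #1 than in siNEG (-0.36 ± 0.10 log2 by limma, SE, 4 arrays a group, adjusted p = 0.0356) and 1.26-fold lower than with #3 (-0.34 ± 0.10, adjusted p = 0.0492), and gave -0.03 ± 0.10 with #3. Both calls lay near the threshold. Without siNEG replicate 1 the difference from siNEG was -0.48 (adjusted p = 0.00119). It lost the call without siNEG replicate 2, 3 or 4 or #1 replicate 1, 2 or 3 (-0.365 to -0.296, adjusted p from 0.0781 to 0.14), with a robust prior variance (adjusted p = 0.0972) and in a fit to gene means (adjusted p = 0.0551). Between the siRNAs the call was lost in 10 of 20 alternatives, down to -0.23 (adjusted p = 0.232) without #3 replicate 2. The other arrays whose omission lost it were siNEG replicates 3 and 4, #1 replicates 1, 2 and 3, and #3 replicate 3 (-0.341 to -0.299, adjusted p from 0.0504 to 0.146).

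E2F8 (ILMN_1811006) kept within -0.11 to 0.09 on all 12 arrays. It gave -0.08 ± 0.06 with #1 (limma adjusted p = 0.668, 95% interval from -0.206 to 0.049) and -0.05 ± 0.06 with #3 (adjusted p = 0.866). Its spread inside groups, an SD of 0.0612, was wider than that of only 6.75% of all probes. A dim probe and a steady transcript cannot be told apart in centred values.

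**Figure D3:**
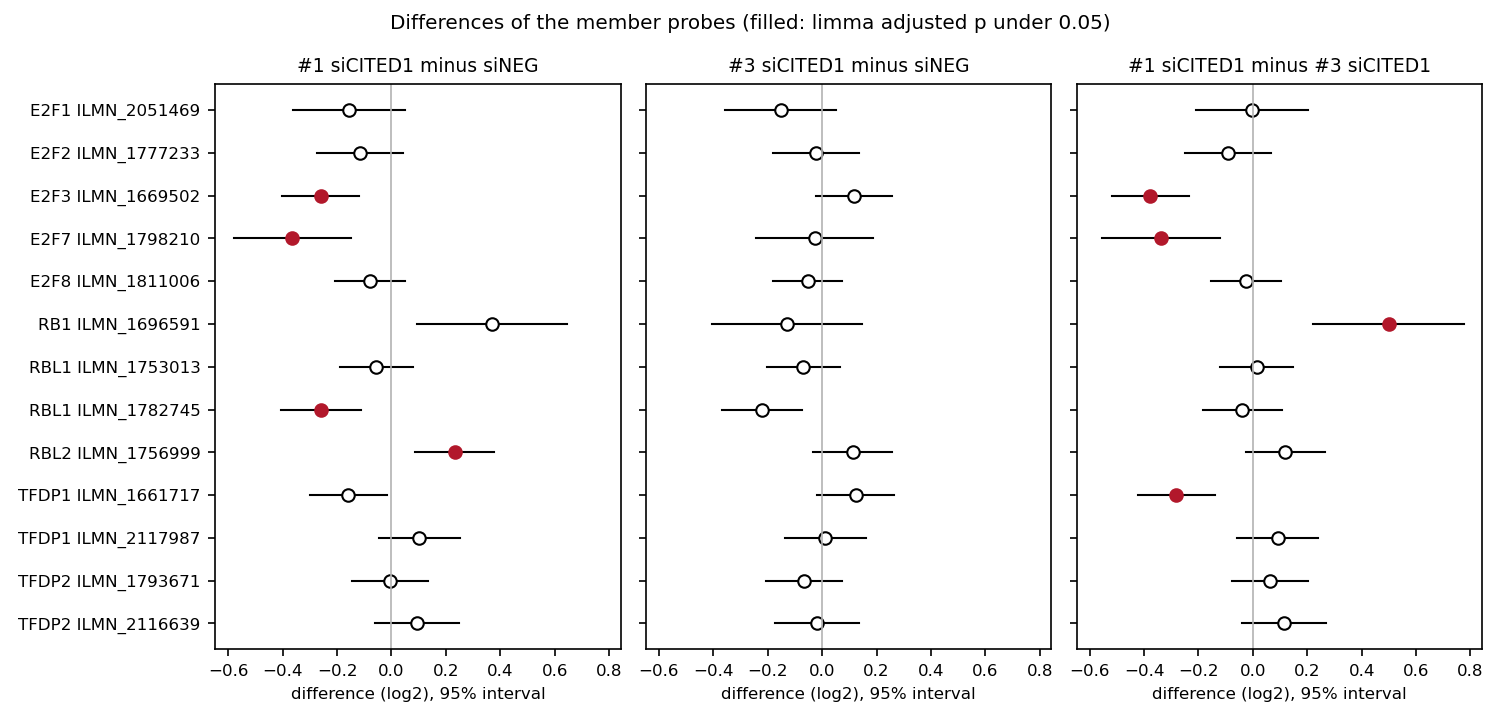
Differences between groups (horizontal axis, log2) with 95% limma intervals for the 13 probes (rows) in #1 minus siNEG, #3 minus siNEG and #1 minus #3. Filled dots have a limma adjusted p under 0.05: 4 in the left panel, 0 in the middle and 4 on the right.

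Among the pocket proteins, RB1 differed between the siRNAs, and its difference from siNEG with #1 passed in 2 of 20 alternatives. RB1 (ILMN_1696591) read 0.22, 0.30, 0.51 and 0.13 with #1, -0.03, 0.01, -0.37 and -0.46 with #3, and -0.56, 0.30, 0.18 and -0.24 in siNEG. Every #1 array lay above every #3 array, and the siNEG arrays overlapped both groups. RB1 was 1.41-fold higher with #1 than with #3 (0.50 ± 0.13 log2 by limma, SE, 4 arrays a group, adjusted p = 0.0184). Against siNEG it gave 0.37 ± 0.13 with #1 (adjusted p = 0.128) and -0.13 ± 0.13 with #3 (adjusted p = 0.843). Without siNEG replicate 1, #1 minus siNEG was 0.21 (adjusted p = 0.451), and without siNEG replicate 2 it was 0.50 and passed (adjusted p = 0.0193). With the filter on the most variable probes it stayed at 0.37 and also passed (adjusted p = 0.000828). That filter picks probes by their SD and so also changes the variance that limma shares across probes. The difference between the siRNAs was lost with a robust prior variance (adjusted p = 0.2) and without #1 replicate 3 (0.43, 0.0886), #3 replicate 3 (0.45, 0.0778) or #3 replicate 4 (0.42, 0.0932).

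RBL1, which encodes p107, was lower with #1 at 1 of its 2 probes. ILMN_1782745 read -0.05, -0.11, -0.26 and 0.02 with #1, -0.12, 0.04, -0.12 and -0.05 with #3, and 0.02, 0.24, 0.23 and 0.16 in siNEG. Of the siNEG arrays, replicates 2, 3 and 4 lay above every siCITED1 array, and replicate 1 lay among them. The difference from siNEG was -0.26 ± 0.07 log2 with #1 (SE, 4 arrays a group, adjusted p = 0.0246 by limma) and -0.22 ± 0.07 with #3 (adjusted p = 0.117), and #1 minus #3 was -0.04 ± 0.07 (adjusted p = 0.892, 95% interval from -0.185 to 0.107). Pooled over both siRNAs it was -0.24 ± 0.06 (n = 8 against 4, adjusted p = 0.0698). Without siNEG replicate 1 all 3 differences from siNEG passed: -0.31 with #1 (adjusted p = 0.00842), -0.27 with #3 (0.0401) and -0.29 pooled (0.0457). The call with #1 was lost without siNEG replicate 2, 3 or 4 or #1 replicate 2 or 3 (-0.26 to -0.205, adjusted p from 0.0569 to 0.127). The second probe, ILMN_1753013, gave -0.06 ± 0.07 with #1 and -0.07 ± 0.07 with #3 (adjusted p = 0.817 and 0.819), and the mean of both probes gave -0.16 with #1 (adjusted p = 0.0781).

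RBL2, which encodes p130, the pocket protein of resting cells, was the 1 member called higher against siNEG. RBL2 (ILMN_1756999) read 0.13, 0.04, 0.11 and 0.19 with #1, 0.09, -0.17, 0.07 and -0.0012 with #3, and -0.25, -0.14, -0.03 and -0.05 in siNEG. All #1 arrays lay above all siNEG arrays, with #3 overlapping both. RBL2 was 1.17-fold higher with #1 (0.23 ± 0.07 log2 by limma, SE, 4 arrays a group, adjusted p = 0.0486). With #3 it gave 0.11 ± 0.07 (adjusted p = 0.637). The call stood at the threshold and passed in 8 of 20 alternatives. It was lost without siNEG replicate 1 (0.19, adjusted p = 0.183), without siNEG replicate 2 or 4, any of #1 replicates 1, 3 and 4, or any of #3 replicates 1, 3 and 4 (0.208 to 0.255, adjusted p from 0.0508 to 0.152), after quantile normalization (0.22, 0.0595), with the filter on the most variable probes (0.23, 0.073) and with array weights (0.22, 0.056).

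The spread between wells of 1 group was uneven over the family. The SD inside groups was 0.282 for RB1, 0.206 for E2F7 and 0.191 for E2F1, above 99.8%, 98.9% and 98.3% of all probes, whose median was 0.0978. Without siNEG replicate 1 these SDs were 0.227, 0.166 and 0.142. For the other 10 probes the SDs over all 12 arrays lay between 0.0612 and 0.122, and without siNEG replicate 1 between 0.0643 and 0.129. RB1 and E2F1 were at opposite ends on 2 arrays: siNEG replicate 1 and #3 replicate 4 held the highest E2F1 values (0.46 and 0.25) and the lowest RB1 values (-0.56 and -0.46). #3 replicate 3, which had the lowest E2F1 value (-0.23), was also low in RB1 (-0.37), so the opposition did not run through all arrays.

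The E2F and DP genes outside the list, E2F4, E2F5, E2F6 and TFDP3, gave no limma call at any of 5 probes in any of the 4 comparisons. At an unadjusted p under 0.05 there were 0 with #1, 1 with #3, 3 between the siRNAs and 0 pooled. E2F4 and E2F5, the repressive E2Fs that p107 and p130 bind, gave 0.14 and 0.03 with #1 and -0.04 and -0.12 with #3. The E2F6 probe ILMN_1656196 gave 0.23 with #3 (limma adjusted p = 0.108) and 0.02 with #1, and the second E2F6 probe gave -0.01 with each.

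The listed target genes of E2F gave wider differences than the E2F genes did, on values in which bright and dim probes cannot be told apart. The list held 34 known targets of DNA replication and S phase, of which 32 were matched by 51 probes. It was chosen with earlier results of these data known. With #1, 37 of the 51 probes, in 27 genes, were called lower and 0 higher, with a median difference of -0.489. Of all probes, 3.25% were called lower and 2.79% higher with #1. With #3, 5 probes in 5 genes were called lower and 0 higher, with a median of -0.081, against 1.2% and 1.34% of all probes. Between the siRNAs 32 probes in 23 genes were lower with #1 (3.82% of all probes), with a median of -0.306. Pooled, 9 probes in 7 genes were lower (0.526% of all probes). At an unadjusted p under 0.05, 41 target probes were lower and 0 higher with #1, and 15 were lower and 1 higher with #3. The list's median on single arrays lay from -0.257 to -0.208 with #1, from 0.0496 to 0.087 with #3 and from 0.108 to 0.202 in siNEG, with no overlap between groups. Without siNEG replicate 1 the counts were 36 with #1, 4 with #3 and 3 pooled, and the pooled count was also 3 to 5 without siNEG replicate 2, 3 or 4 or #1 replicate 2, 3 or 4. In bulk wells, fewer cells in S phase and less of these transcripts per cell cannot be told apart.

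The 5 genes called with #3 were also called with #1: BRCA1 (DNA repair), CDC45 (replicative helicase), FEN1 (flap endonuclease), RRM2 (ribonucleotide reductase) and UHRF1 (maintenance of DNA methylation). With #3, another probe of 3 of them was not called: BRCA1 at -0.28 (limma adjusted p = 0.0791), FEN1 at -0.21 (0.106) and UHRF1 at -0.03. The called FEN1 probe lay near the threshold with #3 (adjusted p = 0.0487). Another 5 target genes were called with neither siRNA: CDC6, GINS1, ORC1, POLA1 and UNG. GINS2, a subunit of the replicative helicase, averaged -0.78 ± 0.12 with #1, 0.35 ± 0.08 with #3 and 0.43 ± 0.09 in siNEG (SD, n = 4). It gave -1.21 ± 0.07 with #1 (limma adjusted p = 4.28e-11) and -0.08 ± 0.07 with #3 (adjusted p = 0.79). TK1 (thymidine kinase) gave -0.80 with #1 and -0.26 with #3, CDC45 gave -0.78 and -0.30, and TYMS (thymidylate synthase) gave -0.68 and -0.17. Of these differences with #3 that of CDC45 passed (adjusted p = 0.00756), and that of TK1 (adjusted p = 0.071) passed without #1 replicate 3 (-0.26, 0.0448) and after quantile normalization (-0.28, 0.0413). For comparison, the widest difference from siNEG in the E2F and RB family was 0.37 (RB1 with #1, not called). Among the start-site windows of 30 target genes, 22 of 45 (48.9%) held an E2F site, 32 (71.1%) a CCAAT box and 4 (8.89%) a CHR element.

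**Figure D4:**
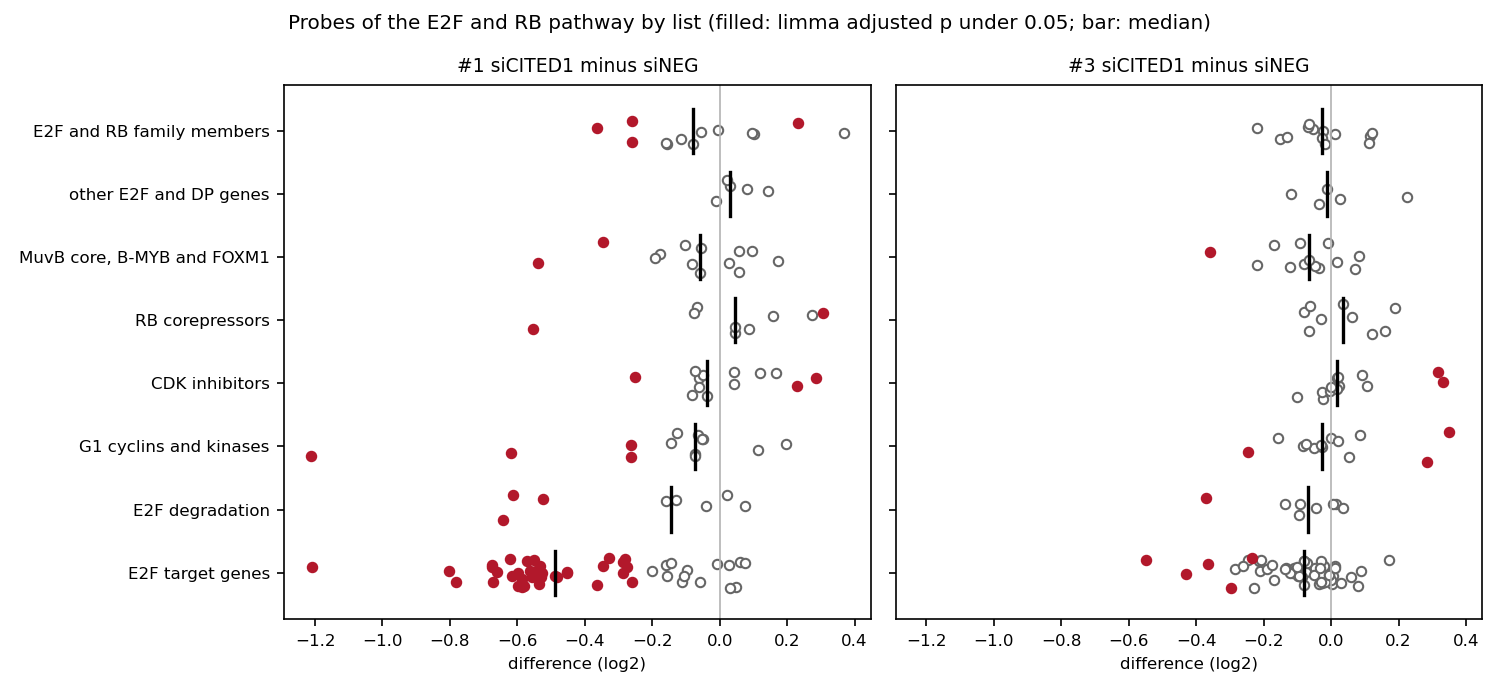
Differences from siNEG (horizontal axis, log2) with #1 siCITED1 (left) and #3 siCITED1 (right) for each probe of 8 gene lists of the pathway (rows). Filled dots have a limma adjusted p under 0.05 and black bars are list medians, which for the E2F target genes lie at -0.489 with #1 and -0.081 with #3.

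The kinases and cyclins that inactivate the pocket proteins included falls of the size seen in the target genes. Of 13 probes of 9 genes, 4 were called lower and 0 higher with #1, and 1 lower and 2 higher with #3. Shares over all probes were 3.25% lower and 2.79% higher with #1, and 1.2% lower and 1.34% higher with #3. The list medians were -0.074 with #1 and -0.027 with #3, so the wide falls belong to single genes. CDK6, a cyclin D kinase, read from -0.90 to -0.72 with #1, from 0.20 to 0.57 with #3 and from 0.22 to 0.60 in siNEG. It gave -1.21 ± 0.08 with #1 (limma adjusted p = 2.73e-10) and -0.03 ± 0.08 with #3 (adjusted p = 0.957). CCND1, cyclin D1, gave -0.62 ± 0.06 with #1 and -0.03 ± 0.06 with #3. CCND3, cyclin D3, gave -0.26 ± 0.06 with #1 (adjusted p = 0.0114), which was lost without #1 replicate 4 (-0.23, adjusted p = 0.0513). CDC25A, the phosphatase that activates CDK2, moved in opposite directions: its probe ILMN_1711005 was -0.26 ± 0.07 with #1 (adjusted p = 0.0162) and 0.35 ± 0.07 with #3 (adjusted p = 0.00304). The fall with #1 was lost without siNEG replicate 3 or #1 replicates 1, 3 or 4 (-0.251 to -0.2405, adjusted p from 0.053 to 0.0602), and the second CDC25A probe gave -0.05 with #1 and 0.29 with #3 (adjusted p = 0.0216 with #3). CDK2, the kinase of cyclin E, gave -0.25 ± 0.07 with #3 at 1 of its probes (adjusted p = 0.0475). This call lay near the threshold, and the alternatives were not run on it.

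CDK inhibitors, which keep the pocket proteins active, were matched for 6 of 7 listed genes by 13 probes, with 2 called higher and 1 lower with #1, and 2 higher and 0 lower with #3. Shares over all probes were 2.79% higher and 3.25% lower with #1, and 1.34% higher and 1.2% lower with #3. The list medians were -0.038 with #1 and 0.018 with #3. CDKN1C (p57) was the gene called with both, at 0.23 with #1 and 0.32 with #3 (limma adjusted p = 0.0309 and 0.00498). Its call with #1 was lost without siNEG replicates 2 or 4 or #1 replicates 1, 3 or 4 (0.196 to 0.2409, adjusted p from 0.0512 to 0.126). That call was also lost with the filter on the most variable probes (0.23, adjusted p = 0.0776) and with only the 2 groups compared (0.23, 0.0527). At 1 of its probes CDKN1A (p21) stood at 0.12 with #1 (adjusted p = 0.486) and 0.33 with #3 (adjusted p = 0.0073). Its other probe gave -0.06 and -0.02. With the mean of its probes the difference with #3 was 0.15 and did not pass (adjusted p = 0.118). CDKN1B (p27) gave 0.29 with #1 and -0.10 with #3 at 1 of 2 probes, and 0.17 (adjusted p = 0.366) and 0.02 at the other. CDKN2D (p19) gave -0.25 with #1 and 0.09 with #3 at 1 of 2 probes, and -0.08 (adjusted p = 0.618) and -0.00081 at the other. Both calls with #1 (adjusted p = 0.0388 and 0.0439) were lost with the mean of the gene's probes (0.23, adjusted p = 0.075 for CDKN1B, and -0.17, adjusted p = 0.0549 for CDKN2D). Quantile normalization also lost them (0.26, adjusted p = 0.0571, and -0.24, 0.0567). So did a fit to only the 2 groups compared (0.29, adjusted p = 0.0742, and -0.25, 0.0758). CDKN1B was at 0.19 (adjusted p = 0.189) without siNEG replicate 1 and was also lost without siNEG replicate 4 or #1 replicates 1, 3 or 4. CDKN2D was lost in 9 of the 12 fits without 1 array, at -0.18 (adjusted p = 0.206) without siNEG replicate 3, and passed in those without siNEG replicates 2 or 4 or #1 replicate 1.

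The genes whose values tracked the called members most closely over the 12 arrays are given as a description, since groups and arrays are shared. They are the highest of a search over the probes with 1 gene symbol (30105 with the members). A high r is therefore partly set by that choice. E2F3 was followed by HAPLN1 (Pearson r = 0.963), MMP15 (0.937) and GOLM1 (0.935), and E2F7 by EGR3 (0.963), PTK2B (0.943) and LSM8 (0.931). RB1 was followed by WNT5A (0.951), CPD (0.947) and EIF4G2 (0.938). For RBL1 (ILMN_1782745) the 3 genes were EXOSC1 (0.960), LEF1 (0.929) and CPEB3 (0.894), for RBL2 they were RPRD1A (0.957), MRPL35 (0.950) and CFAP68 (0.923), and for TFDP1 (ILMN_1661717) CCDC86 (0.954), DNAJC1 (0.913) and IGFBP3 (0.909).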

How the data were processed

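HT144 cells were profiled on Illumina HT-12 arrays in 3 groups of 4, taken from the sample labels. The authors quantile normalized the raw data and removed control probes in BASE, and the deposited log2 values had been centred on gene and sample in MeV; background correction and detection calls are not given. Base 2 is taken from the methods and could not be checked. The centring was checked (probe means within 1.33e-07 and array means within 1.43e-05 of 0). No 2 arrays were identical, and 0 columns were left unmapped. The number of arrays limits the precision.

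The annotation named 1 gene for 30105 of 47315 probes (30066 through the Entrez ID), several genes for 8 and none for 17202, and every probe was tested. limma 3.58.1 in R 4.3.3 (lmFit, eBayes) was fitted to 3 groups, and to the 8 siCITED1 arrays against 4 siNEG arrays in place of the SAM test of the methods, whose label permutations were not run. Tests were two-sided, with Benjamini-Hochberg adjustment across the whole table and a call at an adjusted p under 0.05. Errors of differences are SEs and errors of group means SDs. The fits were tested on simulated data.

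The members, gene lists and markers were chosen with earlier results of these data known. Named were all member probes, CITED1, up to 4 called genes per pathway list with the largest difference with #1 or #3, and 3 genes most correlated with each called member. Further genes and probes (the other E2F and DP genes, second probes, CDK2, the marker genes called, the target genes called with #3 or with neither) were named after their values were seen. CDK2 was a called gene beyond those 4, and the alternatives were not run on it. Alternatives were quantile normalization, probes with 1 symbol, a filter that kept the more variable of the probes (those above the median SD), the mean of each gene's probes, a robust prior, array weights, a replicate block, only the 2 groups compared, the average of both contrasts (pooled) and leaving out each array. Background correction and a slide block could not be run on these values. Replicate numbers did not pair the arrays and were not used in the tests reported. Motif searches used RefSeq start-site windows.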

Additional observations from a re-analysis of the deposited data

Results flagged for a closer look

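Of 96 groups of 4 arrays tested for a single distant array, 2 stood out, and chance gives about 1 in 20. CDC25A (ILMN_1711005) read -0.145 on #1 replicate 2, with the other #1 arrays from -0.362 to -0.332. CCNF (ILMN_1773119), cyclin F, which takes part in degrading activating E2Fs, read -0.313 on #1 replicate 3, with the others from -0.37 to -0.363.

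Genes of the pathway lists were named for the largest called differences with #1 or #3. A count of differences between the siRNAs at those genes is therefore partly set by that choice. Over all probes, 3.64% were called higher and 3.82% lower in #1 minus #3. The siRNAs differed from each other in the limma test of #1 minus #3 at 18 of the 32 named probes tested for this. In the family these were E2F3 (-0.377), E2F7 (-0.337), TFDP1 (ILMN_1661717, -0.281) and RB1 (0.499). Among the cyclins, kinases and CDC25A they were CDK6 (-1.18), CCND1 (-0.591), CDC25A (-0.614) and CCND3 (-0.314). Among the CDK inhibitors they were CDKN1B (0.388) and CDKN2D (-0.341). Among the E2F targets they were GINS2 (-1.13), TK1 (-0.539), CDC45 (-0.484) and TYMS (-0.501). The remaining ones were FOXM1 (-0.461), RBBP4 (0.455), SUV39H1 (-0.494) and CCNF (-0.538). Both siRNAs lowered CITED1 RNA, and #1 minus #3 for CITED1 was 0.11 (adjusted p = 0.472). Protein was not read here, and the paper describes weaker silencing of CITED1 by #3 on a Western blot.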

How the results depend on the processing

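Results were refitted under 20 alternatives, or 19 for the probes of E2F8, RBL1 (ILMN_1753013) and TFDP2 (ILMN_1793671) that the filter on variable probes removed, and 0 called differences reversed. For the member probes, 978 of 1028 values kept their side of the threshold, 44 lost a call and 6 gained one. With gene means (the mean of the probes of each gene), which count genes and not probes, 2 of the 10 members were called with #1. Counts of member probes called with #1 (4) ran from 1 to 4 when single arrays were left out. With #3 (0) they ran from 0 to 1, with RBL1 called without siNEG replicate 1. For #1 minus #3 (4) they ran from 2 to 4 and were 2 with a robust prior variance and 2 with gene means. Pooled (0), they ran from 0 to 1 and were 1 with array weights and 1 with the average of the #1 and #3 contrasts, RBL1 in each case. The pooled count over all probes (525) ran from 240 to 592 without 1 array (240 to 329 without any 1 siNEG array), was 1692 with the average of the contrasts, whose model does not count the difference between the siRNAs as error, and 291 with the replicate block. The pooled count of E2F target probes (9) ran from 3 to 11, was 5 with gene means, 28 with the average of the contrasts and 3 with the replicate block. The cause of the other changes was not tested. Counts of E2F target probes with #1 (37) lay between 34 and 37 in all alternatives that kept single probes. With gene means 27 of the 32 matched target genes were called.

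The replicate numbers did not pair the arrays: over 12 pairs, deviations at the same number correlated from -0.0538 to 0.0979, and in 4 of them the same number gave the highest correlation. With the replicate block, 4 member probes were called with #1, 0 with #3 and 4 between the siRNAs.

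Limits: wells came from 1 plating, values have no absolute level or detection call, and most member calls lie near the threshold. A p that misses it does not show that groups were alike.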

Other observations

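Partners of the pocket proteins and the E2F degradation genes were also read. The MuvB core binds p107 or p130 in resting cells and B-MYB and FOXM1 in cycling ones. Shares over all probes were 3.25% lower and 2.79% higher with #1, and 1.2% lower and 1.34% higher with #3. The medians of this list were -0.060 with #1 and -0.065 with #3. Of 13 probes of 8 genes, 2 were called lower and 0 higher with #1, both of FOXM1 (-0.54 and -0.35), and 1 lower with #3. That 1 was RBBP4, a histone-binding subunit, at -0.36 with #3 and 0.10 with #1 at 1 of 3 probes, with -0.06 and -0.17 with #3 at the others. The call was lost without siNEG replicate 2 (-0.25, adjusted p = 0.0842), siNEG replicate 3 (-0.34, 0.0642) or #3 replicate 4 (-0.35, 0.0542).

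RB corepressors were matched for 7 of 9 listed genes by 9 probes, with 1 lower and 1 higher with #1 and 0 with #3 in limma (1 at an unadjusted p under 0.05). Shares over all probes were 3.25% lower and 2.79% higher with #1, and 1.2% and 1.34% with #3. The list medians were 0.047 with #1 and 0.035 with #3. SUV39H1, a histone methyltransferase that RB recruits, gave -0.56 with #1 and -0.06 with #3. SMARCA2, a chromatin remodelling ATPase, gave 0.31 with #1 and 0.16 with #3 at 1 of 2 probes, and 0.05 and 0.06 at the other. The call of SMARCA2 was lost on leaving out any 1 of the siNEG arrays, #1 replicates 3 or 4 or #3 replicates 1 or 3, down to 0.21 (adjusted p = 0.218) without #1 replicate 3, and with the mean of its probes (0.18, 0.0838). It was also lost with only the 2 groups compared (0.31, adjusted p = 0.0797). Of 8 probes of 4 genes for E2F degradation, 3 were lower with #1 and 1 with #3, against 3.25% and 1.2% of all probes. The medians of these 8 probes were -0.144 with #1 and -0.068 with #3. CKS1B, a cofactor of the SKP2 ubiquitin ligase, gave -0.64 with #1 and -0.37 with #3 at 1 of 2 probes, and -0.61 and -0.14 at the other. The call with #3 was lost without siNEG replicate 3 (-0.33, adjusted p = 0.0664) or #3 replicate 2 (-0.35, 0.0525). CCNF gave -0.52 with #1 and 0.01 with #3.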
